A study of Drosophila melanogaster with 8 samples.

Results

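The Or, Gr and Ir genes of Drosophila melanogaster encode the odorant, gustatory and ionotropic receptors with which the fly smells and tastes. The genes described here carry such a name followed by digits and a letter, and their raw counts summed to at least 80 over all 8 libraries. Of 14865 genes in the table, 112 had a matching name and 48 reached that sum, with 13 Or, 16 Gr and 19 Ir genes among them. The members were thus selected on their summed counts, whichever genotype the counts came from.

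Messenger RNA was sequenced from 3 libraries of DHR39 mutant flies and 5 libraries of control flies. DHR39 (gene symbol Hr39) is a nuclear receptor, and the series title places the study in male fertility and the accessory gland, a secretory organ of the male reproductive tract. Every library came from whole flies aged to day 8 of adulthood on food with 8% yeast and 9% sugar, and the control libraries were shared with another series. The deposited sample sheet names the genotype DHR393.48 for the DHR39 libraries and w1118, a white-eyed laboratory strain, for the control libraries. The labels do not give the background of the mutant or the sex of the flies. Separate cultures for the replicates are not stated in the labels, and each p-value therefore measures the spread between these libraries, which may be technical. Hr39 itself measured 24.4, 26.5 and 30.1 CPM (counts scaled to a common library size) in DHR39 flies, against 39.9, 34.6, 33.8, 35.6 and 37.0 CPM in control flies, so its transcript was lower but present (log2 fold change -0.42 ± 0.10, edgeR adjusted p = 0.0119).

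Odorant receptors are made by small sets of neurons of the antenna and the maxillary palp, where each works with the shared co-receptor Orco. Gustatory receptors respond to sugars, bitter compounds, carbon dioxide and some pheromones in neurons of the mouthparts, legs and wings, and a few also sense temperature or internal nutrients. Ionotropic receptors descend from glutamate receptors, need co-receptors such as Ir25a, Ir8a or Ir76b, and serve the detection of acids, amines, salts, temperature and humidity.

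In DHR39 flies 4 receptor genes were higher and 4 were lower than in control flies, and the other 40 did not pass the test. Gr94a, Gr43a, Gr98a and Ir100a rose, with log2 fold changes between 1.62 and 3.06. Gr47a, Gr59f, Or59c and Ir62a fell, with log2 fold changes between -1.91 and -0.54. Without DHR39 replicate 1 none of these 4 passed. Differences are given as DHR39 minus control on the log2 scale ± SE, from edgeR's quasi-likelihood test on raw counts, adjusted with the Benjamini-Hochberg method over all 13506 genes tested, with calls at an adjusted p under 0.05. This main test used genotype only, and the replicate names that join libraries of both groups entered only as a block in refits. The 8 called members are 16.7% of the 48, against 17.3% of all genes tested, a share near the background. Gr94a, Gr43a and Gr47a are among the 8, although they passed the filter on low counts through 1 group only. Among all genes, 6.58% were called higher and 10.7% lower. The share was 15.6% among the 4167 genes whose summed counts lay within the members' range. Scaling by library totals alone gave 5 higher and 3 lower calls. An unadjusted p under 0.05 was reached by 13 of the 48 members, 7 of them higher and 6 lower.

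The families differed in their counts of calls, and these differences were not tested. Of the 13 Or genes, none rose, 1 fell and 12 did not pass in edgeR's test, where an unadjusted p under 0.05 was reached by 1 higher and 3 lower genes. DESeq2 and limma voom likewise called no Or gene higher, but 4 edgeR refits called Or23a higher, under other scalings or without control replicate 4. Of the 16 Gr genes, 3 rose, 2 fell and 11 did not pass, and with replicate names as a block no Gr gene was called lower (Gr47a at adjusted p = 0.0744 and Gr59f at 0.0769). Of the 19 Ir genes, 1 rose, 1 fell and 17 did not pass. The median log2 fold change was -0.0094 for Or, 0.15 for Gr, 0.14 for Ir and 0.12 for all 48 members, beside -0.0044 for all genes tested. Scaling by library totals alone moved the median of all genes to 0.14, so a small shift of a whole family depends on the scaling.

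**Figure D1:**
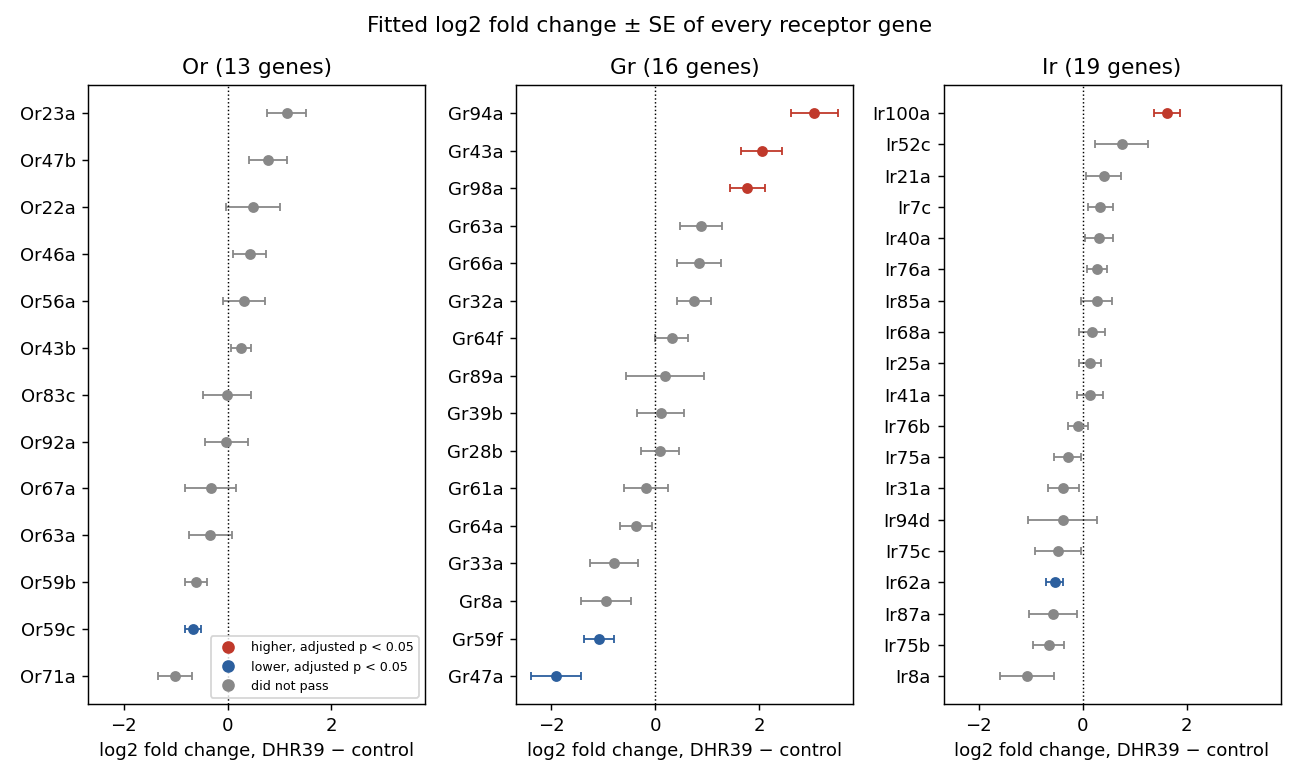
Fitted log2 fold change (DHR39 minus control, x axis) with its SE (bars) for each of the 13 Or, 16 Gr and 19 Ir genes, ordered by value within each family. Red points rose, blue points fell and grey points did not pass; Gr94a at 3.06 and Gr47a at -1.91 are the extremes.

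The receptor genes were scarce in RNA of whole flies. All 48 together held 13767 counts, or 0.00964% of all counts, in libraries of 16072497 to 19935574 counts. The 4 genes with the most counts, Ir62a, Or59b, Or59c and Ir25a, held 33.9% of that sum. Mean counts per library ran from 10.1 to 177 over the members, and 1 count was worth between 0.0474 and 0.0595 CPM, depending on the library. The median coefficient of variation of a member over the 5 controls was 32.2%, and counting error alone gives a median of 22.1%. Standard errors of the log2 fold changes ran from 0.16 to 0.75. In such bulk samples, fewer cells of a type and less RNA per cell cannot be told apart.

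Per kb of exon, the levels were led by a few genes in each family, and these were compared on that scale only. Or59b, Or59c, Or43b and Ir62a each overlap the body of another gene, as given below. What part reads of those neighbours had in these levels was not tested. Or59b, a receptor of the antenna for acetate esters of food, averaged 4.56 ± 1.48 CPM per kb in DHR39 flies and 6.94 ± 1.14 CPM per kb in control flies (SD, n = 3 and n = 5). Or59c, a receptor of the maxillary palp, averaged 4.39 ± 0.598 CPM per kb in DHR39 flies and 6.97 ± 0.977 CPM per kb in control flies. The next Or gene was Or43b, an antennal receptor for food odours, with 3.72 ± 1.02 CPM per kb in DHR39 flies and 3.12 ± 0.378 CPM per kb in control flies. Every other Or gene averaged under 1 CPM per kb over the 8 libraries, down to 0.364 for Or46a.

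Ir62a, which acts with Ir25a and Ir76b in the taste of calcium, led the Ir genes with 4.23 ± 0.915 CPM per kb in DHR39 flies and 6.17 ± 0.701 CPM per kb in control flies. Behind it over all libraries came Ir75a, a receptor for acetic acid, and Ir76a, a receptor for phenylethylamine, at averages of 1.65 and 1.61 CPM per kb. The lowest Ir gene was the co-receptor Ir8a, at 0.264 CPM per kb. The Gr genes were led by Gr59f at 1.68, Gr8a at 1.18 and Gr32a at 1.08 CPM per kb over all libraries. Their order differed between the genotypes: Gr94a led the family in DHR39 flies with 1.84 ± 0.614 CPM per kb and was last in control flies with 0.213 ± 0.140 CPM per kb.

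**Figure D2:**
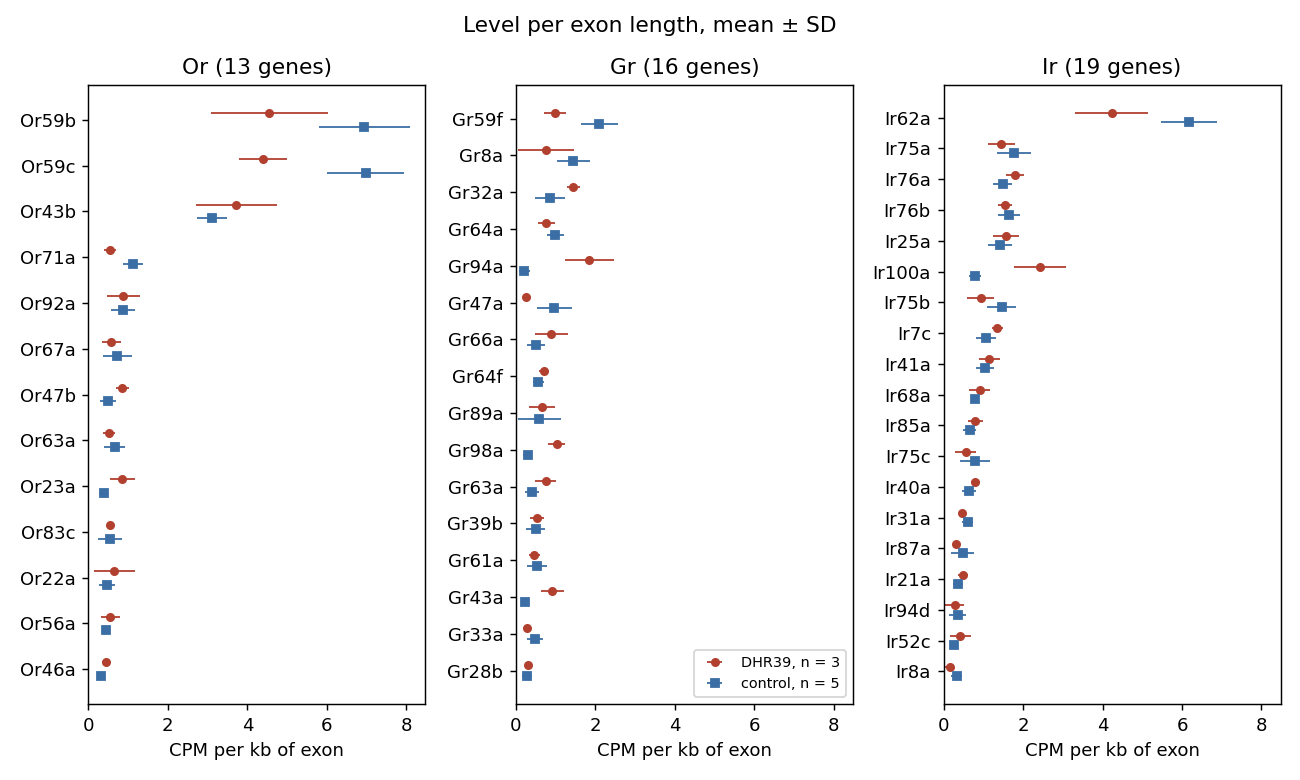
Mean level in CPM per kb of exon (x axis) with its SD (bars) in DHR39 flies (red circles, n = 3) and control flies (blue squares, n = 5) for each receptor gene, ordered within a family by the mean over all 8 libraries. Or59b, Or59c, Or43b and Ir62a stand above the other genes. Each of them overlaps the body of another gene, whose part in these levels was not tested.

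Levels were also summed over each family. The 13 Or genes summed to 27.4 ± 3.18 CPM in DHR39 flies and 33.3 ± 2.87 CPM in control flies (SD, n = 3 and n = 5). By library the Or sums were 23.8, 29.7 and 28.8 CPM in DHR39 flies, against 29.3, 32.1, 36.6, 35.4 and 33.1 CPM in control flies. DHR39 replicate 2 lay above the lowest control, so the groups overlapped. Or59b and Or59c, an adjacent pair picked here after their values were seen, accounted for the lower sum: together they held 13.0 ± 2.98 CPM in DHR39 flies and 20.2 ± 2.67 CPM in control flies. The other 11 Or genes summed to 14.4 ± 1.48 CPM in DHR39 flies and 13.1 ± 0.861 CPM in control flies.

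The 16 Gr genes summed to 19.5, 18.7 and 19.4 CPM in the DHR39 libraries, against 15.9, 15.4, 17.8, 14.4 and 17.8 CPM in the control libraries. Every DHR39 sum lay above every control sum. These sums include Gr94a and Gr43a, which passed the filter on low counts only through DHR39 libraries, and Gr47a, only through control libraries. The separation therefore says nothing about the family as a whole. The 3 Gr genes that rose held 5.60 ± 0.475 CPM of the Gr sum in DHR39 flies and 1.159 ± 0.168 CPM in control flies. The 2 that fell held 1.504 ± 0.374 CPM in DHR39 flies and 3.73 ± 0.701 CPM in control flies. The 11 Gr genes that did not pass summed to 12.1 ± 0.289 CPM in DHR39 flies and 11.4 ± 1.44 CPM in control flies. By library their sums ran from 11.8 to 12.3 CPM in DHR39 flies and from 10.0 to 13.1 CPM in control flies, so the groups overlapped. Ir sums were 47.7 ± 1.58 CPM in DHR39 flies and 48.1 ± 2.47 CPM in control flies and overlapped. No test was made on these sums, since the members were chosen with results known.

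**Figure D3:**
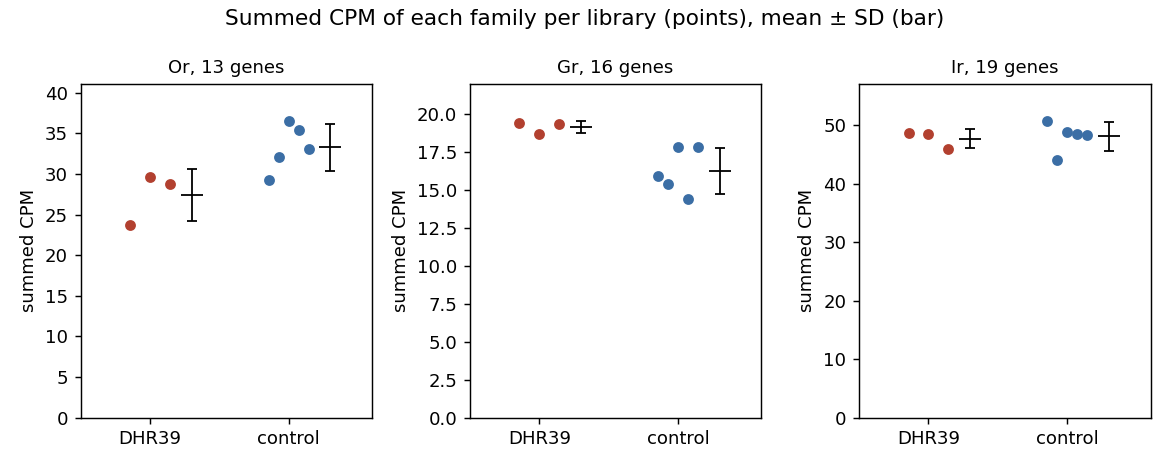
Summed CPM (y axis, from 0) of the Or, Gr and Ir genes in each DHR39 library (red points, n = 3) and each control library (blue points, n = 5), with mean and SD beside them. The Gr sums of 18.7 to 19.5 in DHR39 flies lie above the 14.4 to 17.8 of control flies, and the Or and Ir sums overlap. The Gr sums include Gr94a and Gr43a, which passed the filter on low counts only through DHR39 libraries, and Gr47a, only through control libraries.

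Gr94a had the largest change of any member. It measured 3.05, 2.09 and 1.58 CPM in DHR39 flies, against 0.115, 0.344, 0.0594, 0.475 and 0.297 CPM in control flies. These values rest on 53, 44 and 27 counts in DHR39 libraries and on 1 to 9 counts in control libraries. The lowest DHR39 library stood above 3 times the highest control. Its log2 fold change was 3.06 ± 0.45 (edgeR adjusted p = 0.00056). Gr94a is a gene of 1 exon at 3R from 23051689 to 23052903 on the plus strand of BDGP6.

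Gr43a, the fructose sensor of taste neurons, brain and gut, measured 0.921, 1.47 and 1.82 CPM in DHR39 flies, against 0.404, 0.287, 0.535, 0.264 and 0.178 CPM in control flies. Gr98a measured 2.02, 1.52 and 2.35 CPM in DHR39 flies, against 0.577, 0.344, 0.832, 0.370 and 0.713 CPM in control flies. In both genes the groups were apart, and DHR39 replicate 1 was lowest for Gr43a but not for Gr98a. The log2 fold change of Gr43a was 2.05 ± 0.40 (edgeR adjusted p = 0.00353), and that of Gr98a was 1.78 ± 0.34 (edgeR adjusted p = 0.00347). Gr43a lies at 2R from 7390869 to 7393161 on the minus strand, and Gr98a at 3R from 27487927 to 27489968 on the plus strand.

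Ir100a was the only Ir gene that rose. It measured 5.64, 4.27 and 3.28 CPM in DHR39 flies, against 1.73, 1.09, 1.49, 1.21 and 1.61 CPM in control flies. All DHR39 libraries were above all control libraries, which lay close together with a mean of 1.43 ± 0.268 CPM (SD, n = 5). On the log2 scale Ir100a rose by 1.62 ± 0.24 (edgeR adjusted p = 0.000607). Ir100a has 1 exon and lies at 3R from 31800963 to 31802774 on the plus strand. The calls of Gr94a, Gr43a, Gr98a and Ir100a held in every refit, but the refits reuse the same libraries and are no independent check. Gr94a and Gr43a also passed the filter on low counts only through DHR39 libraries, where they are high.

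Gr47a, a receptor of bitter taste neurons, was low and even in DHR39 flies at 0.288, 0.332 and 0.293 CPM, against 1.38, 1.95, 1.01, 0.951 and 0.535 CPM in control flies. The DHR39 values stand for only 5, 7 and 5 counts, and the groups did not overlap. Gr47a differed by -1.91 ± 0.48 on the log2 scale (edgeR adjusted p = 0.0157). The call ended with replicate names as a block (log2 fold change -1.42, adjusted p = 0.0744), and without DHR39 replicate 1, 2 or 3, at adjusted p values of 0.0565, 0.0558 and 0.0631. Gr47a lies at 2R from 10362185 to 10363584 on the plus strand.

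Gr59f measured 0.864, 1.56 and 1.17 CPM in DHR39 flies, against 2.94, 2.47, 2.32, 1.80 and 3.27 CPM in control flies. DHR39 replicate 2 came nearest to the control libraries but stayed below their lowest. Gr59f differed by -1.07 ± 0.29 on the log2 scale (edgeR adjusted p = 0.0239). The call ended with the block (adjusted p = 0.0769), and without DHR39 replicate 1 or 3 or control replicate 1 or 5, at adjusted p values of 0.0940, 0.0833, 0.0510 and 0.0559. Gr59f lies at 2R from 23542510 to 23543885 on the plus strand.

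Or59c measured 5.18, 6.64 and 6.63 CPM in DHR39 flies, against 7.85, 10.5, 10.1, 11.4 and 8.98 CPM in control flies. No DHR39 library reached the lowest control. Or59c differed by -0.66 ± 0.16 on the log2 scale (edgeR adjusted p = 0.0115), and without DHR39 replicate 1 the adjusted p was 0.0531. Or59b, which lies 525 bases from Or59c on the same strand, measured 4.55, 6.97 and 8.97 CPM in DHR39 flies, against 7.91, 9.47, 12.1, 10.98 and 11.5 CPM in control flies. DHR39 replicate 3 lay above the lowest control library of Or59b. For Or59b it was -0.61 ± 0.21 and did not pass (edgeR adjusted p = 0.0713). It passed with the replicate block (-0.79, adjusted p = 0.0207), under DESeq2 (adjusted p = 0.0330), and without DHR39 replicate 3 or control replicate 1 (adjusted p values of 0.0301 and 0.0449). Or59b lies at 2R from 23470165 to 23471775, and Or59c from 23472300 to 23473753, both on the minus strand.

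Ir62a fell by the least of the called genes. It measured 5.93, 9.24 and 7.92 CPM in DHR39 flies, against 11.7, 11.1, 9.39, 12.9 and 11.1 CPM in control flies. DHR39 replicate 2 at 9.24 CPM was just below the lowest control at 9.39 CPM. The log2 fold change was -0.54 ± 0.16 (edgeR adjusted p = 0.0356). The call ended with library totals alone (adjusted p = 0.0933), with totals without the 50 most abundant genes (adjusted p = 0.0708), without DHR39 replicate 1 or 3 (0.130 and 0.0943) and without control replicate 1, 2, 4 or 5 (0.0683, 0.0529, 0.0717 and 0.0625). Ir62a has 1 exon and lies at 3L from 1529439 to 1531259 on the minus strand.

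**Figure D4:**
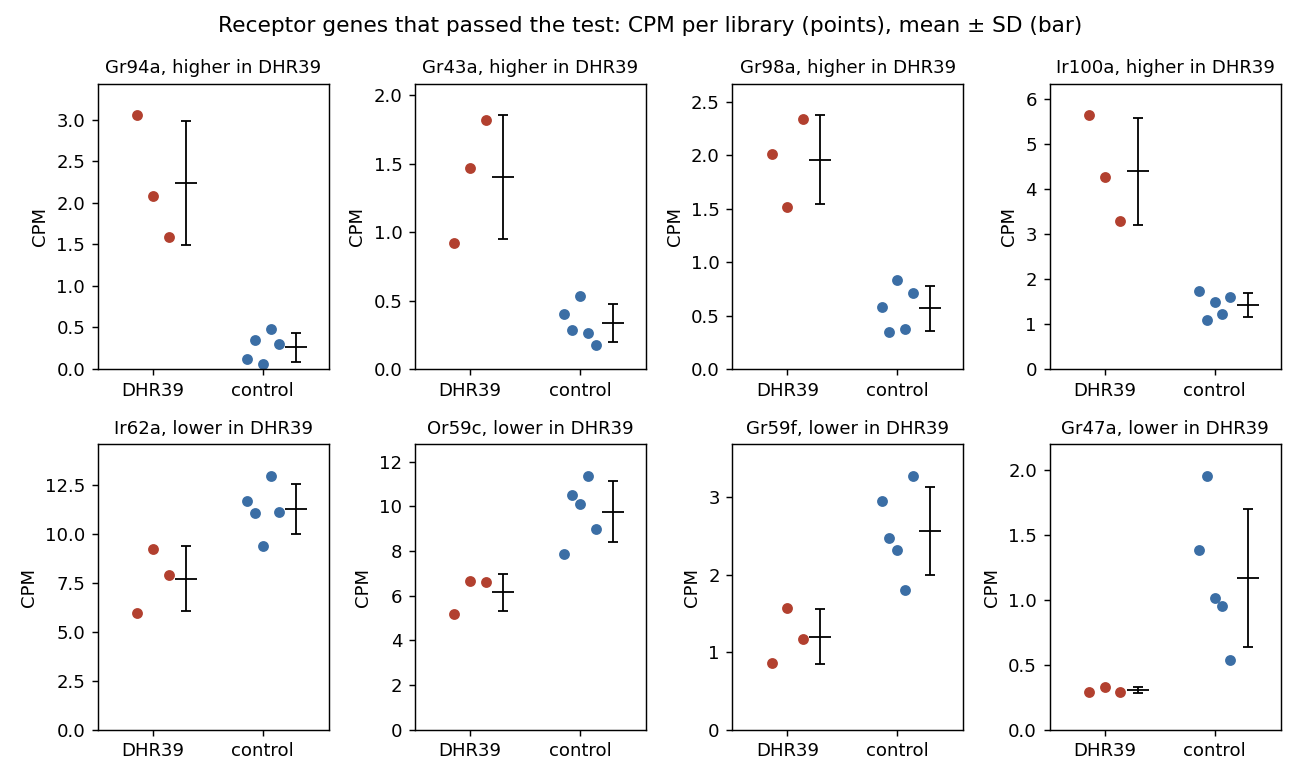
CPM (y axis, from 0, scaled per gene) of the 8 receptor genes that passed the test in each DHR39 library (red points, n = 3) and each control library (blue points, n = 5), with mean and SD beside them. The groups do not overlap in any of the 8 panels; Ir62a has the narrowest gap, with 9.24 CPM in DHR39 replicate 2 and 9.39 CPM in control replicate 3.

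In 10 of the 48 members, or 20.8%, the CPM of the groups did not overlap, 5 higher and 5 lower in DHR39 flies, against 23.2% of all genes tested. These were the 8 called genes, Or71a and Or23a. Or71a, a receptor of the maxillary palp, measured 0.518, 0.948 and 0.880 CPM in DHR39 flies, against 1.67, 1.03, 1.55, 2.01 and 1.72 CPM in control flies. Its log2 fold change of -1.02 ± 0.33 did not pass (edgeR adjusted p = 0.0548), and it passed under DESeq2 (adjusted p = 0.0412), without control replicate 2 (0.0285) and in a block fit on the 6 paired libraries alone (0.0493). Or23a, an odorant receptor, measured 0.864, 0.995 and 1.64 CPM in DHR39 flies, against 0.635, 0.459, 0.357, 0.739 and 0.416 CPM in control flies. Its log2 fold change of 1.14 ± 0.37 did not pass (edgeR adjusted p = 0.0547). It passed with library totals alone (0.0280), totals without the 50 most abundant genes (0.0364), upper-quartile factors (0.0456) and without control replicate 4 (0.0474). The authors' deposited table called 10 members, which were the 8 called here, Or59b and Or71a. That table shares libraries with the test made here and is no independent check.

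The co-receptors, on which most Ir genes depend, did not pass the test. Ir25a measured 5.58, 6.78 and 4.46 CPM in DHR39 flies, against 6.58, 3.90, 5.71, 4.07 and 5.23 CPM in control flies, a log2 difference of 0.14 ± 0.21 (edgeR adjusted p = 0.731). Ir76b measured 3.86, 3.08 and 3.69 CPM in DHR39 flies, against 3.69, 2.98, 3.39, 4.59 and 4.22 CPM in control flies, a log2 difference of -0.096 ± 0.20 (edgeR adjusted p = 0.815). The groups overlapped in both. Ir8a, the co-receptor of acid-sensing neurons, measured 0.806, 0.332 and 0.176 CPM in DHR39 flies, against 1.62, 0.631, 0.713, 1.003 and 0.654 CPM in control flies. DHR39 replicate 1 lay among the control libraries and the others below them, on 7 and 3 counts, and the log2 fold change of -1.08 ± 0.52 did not pass (edgeR adjusted p = 0.201). Ir93a, the fourth co-receptor, had 64 counts in all and was not tested.

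Receptors of temperature and humidity did not pass the test. Ir40a, needed to sense dry air, had 0.32 ± 0.27, Ir68a, needed to sense moist air, had 0.18 ± 0.25, and Ir21a, a receptor of cooling, had 0.40 ± 0.34. Gr28b, which has a role in sensing warmth, had 0.093 ± 0.36. Their edgeR adjusted p values ran from 0.508 to 0.910.

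The 6 antennal Ir genes with enough counts did not pass either. Ir75a, Ir75b and Ir75c, which lie side by side at 3L from 17815570 to 17822834 and detect short acids, had log2 fold changes of -0.29 ± 0.26, -0.65 ± 0.30 and -0.47 ± 0.44. Ir31a had -0.37 ± 0.30, Ir41a, a receptor for polyamines, had 0.14 ± 0.25, and Ir76a had 0.28 ± 0.20. Ir75b came nearest to the threshold, at 2.30, 1.09 and 1.70 CPM in DHR39 flies, against 3.75, 2.18, 2.50, 2.06 and 2.79 CPM in control flies (edgeR adjusted p = 0.177). Among the other Ir genes, Ir7c, a receptor of high salt, had 0.34 ± 0.24, Ir52c, a gene of leg taste neurons, had 0.75 ± 0.51, Ir85a had 0.27 ± 0.30, Ir87a had -0.57 ± 0.47 and Ir94d had -0.38 ± 0.66. None of these 5 passed.

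Among the 4 sugar receptors, Gr43a rose and the others did not pass. Gr64a and Gr64f, which work in the sweet neurons of the mouthparts, had log2 fold changes of -0.37 ± 0.30 and 0.32 ± 0.32, and Gr61a, a glucose receptor, had -0.17 ± 0.42. Among the 6 bitter receptors, Gr47a fell and the others did not pass. Gr66a and Gr33a, which are shared by most bitter neurons, had log2 fold changes of 0.84 ± 0.42 and -0.79 ± 0.46, and Gr89a had 0.18 ± 0.75. Gr89a was the most uneven member: it had 6, 16 and 18 counts in DHR39 libraries, against 25, 9, 0, 4 and 17 counts in control libraries, and was the only member with no count in a library. Gr63a, a subunit of the carbon dioxide receptor, measured 0.806, 0.948 and 1.52 CPM in DHR39 flies, against 0.635, 0.459, 1.01, 0.370 and 0.476 CPM in control flies, a log2 difference of 0.88 ± 0.40 (edgeR adjusted p = 0.168). Gr39b, whose groups overlapped, had a log2 fold change of 0.11 ± 0.46 and did not pass.

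A pair of these bitter receptors, Gr32a and Gr8a, also senses male pheromones, and neither passed in the main test. Each passed only in the 1 refit that left out a library lying among those of the other group. Gr32a measured 2.25, 2.13 and 2.64 CPM in DHR39 flies, against 1.10, 0.861, 2.44, 1.37 and 1.19 CPM in control flies. Control replicate 3 lay among the DHR39 libraries. The log2 fold change was 0.75 ± 0.32 (edgeR adjusted p = 0.147), and without control replicate 3 it was 1.04 (adjusted p = 0.0199). Gr8a measured 2.36, 0.427 and 0.645 CPM in DHR39 flies, against 1.44, 3.04, 2.56, 1.90 and 1.90 CPM in control flies. DHR39 replicate 1 lay among the control libraries. The log2 fold change was -0.94 ± 0.48 (edgeR adjusted p = 0.234), and without DHR39 replicate 1 it was -2.02 (adjusted p = 0.00923). Of the other pheromone receptors, Or47b, which senses a courtship odour in antennal neurons, measured 1.27, 1.04 and 0.880 CPM in DHR39 flies, against 0.519, 0.402, 1.01, 0.687 and 0.476 CPM in control flies. Its log2 fold change of 0.77 ± 0.36 did not pass (edgeR adjusted p = 0.189).

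The other members that are receptors of food and warning odours did not pass in any refit. Or43b had a log2 fold change of 0.26 ± 0.20, Or22a, a receptor of fruit esters, had 0.49 ± 0.52, and Or92a, a receptor of diacetyl, had -0.020 ± 0.42. Or56a, the receptor of geosmin, an odour of mould, had 0.31 ± 0.40, and Or83c, a receptor of farnesol, had -0.0094 ± 0.45. The DHR39 libraries were uneven for Or22a, at 1.73, 0.758 and 0.293 CPM, against 0.577, 0.516, 1.13, 0.422 and 0.654 CPM in control flies. Or46a of the maxillary palp had 0.43 ± 0.32, Or63a, known from larvae, had -0.33 ± 0.42, and Or67a, an antennal receptor, had -0.32 ± 0.49. None of these 3 passed.

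Many members lie within or beside other genes, and the library kit keeps strand. The strand setting of the read counting was not given in the sources at hand. Of the 48 members, 19 overlapped the body of another gene, 6 of them called, and 11 shared exon bases, 1 of them called. Among all genes tested 17.3% were called. The share among all genes that overlap another was not computed, so these counts show no trait of overlapping receptor genes. Gr94a lies inside p53 on the opposite strand and 13 bases from a noncoding gene on its own strand, CR46089. Both of these rose as well, p53 by 0.73 ± 0.14 (edgeR adjusted p = 0.00292) and CR46089, at 2.79 ± 0.795 CPM in DHR39 flies and 0.739 ± 0.287 CPM in control flies, by 1.90 ± 0.35 (edgeR adjusted p = 0.00239). Ir100a, which rose, lies inside CG42233 on the opposite strand, which fell by 0.53 on the log2 scale (edgeR adjusted p = 0.00882). Or59b and Or59c lie inside CG43795 on the opposite strand, which rose by 0.62 ± 0.14 (edgeR adjusted p = 0.00730). The host genes of Ir100a and of Or59c thus changed in the direction opposite to the receptor.

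Ir62a lies inside Iml1 on the same strand, which had 109 ± 8.81 CPM in DHR39 flies and 115 ± 11.1 CPM in control flies and did not pass (-0.085 ± 0.099). Gr47a lies inside SLO2 on the opposite strand, which did not pass (-0.21 ± 0.12). Gr43a shared 155 exon bases, 10.2% of its own, with Dhx15 on the opposite strand, which did not pass (0.25 ± 0.096). The largest shared stretches were in members that did not pass: Or46a shared all of its exon bases with an antisense RNA gene, Ir21a shared 79.4% and Or43b shared 40.7%, the last with Cul1. Or71a overlaps Plp on the same strand without shared exon bases, and Plp had 22486 counts over all libraries. Or23a shared 69 exon bases, 5.06% of its own, with Prosbeta4R2 on the same strand, which had 7011 counts. Neither Plp nor Prosbeta4R2 passed the test. What part reads of these neighbours had in the receptors' counts was not tested. Arm 2R held 4 called genes among 11 members (20.8% of all genes tested there were called), arm 3R held 3 among 9 (15.4%) and arm 3L held 1 among 15 (14%). No member on X (3 genes, against 12% of all genes) or on 2L (10 genes, against 23.6%) was called in edgeR's main test. Arm 2L carries Hr39 itself. On 2L an unadjusted p under 0.05 was reached by 2 members in edgeR's main test, and DESeq2 and voom called none. Other edgeR refits did call members on these arms. On 2L, Or23a passed with library totals alone (adjusted p = 0.0280) and in 3 further refits given above, and Gr32a without control replicate 3 (0.0199). On X, Gr8a passed without DHR39 replicate 1 (0.00923).

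Other genes of the chemosensory neurons were listed for comparison. Orco, the co-receptor of the Or family, averaged 16.3 ± 0.987 CPM in DHR39 flies and 14.7 ± 1.94 CPM in control flies and did not pass (0.15 ± 0.12, edgeR adjusted p = 0.495). Of the 24 olfactory and gustatory accessory genes, 4 rose, 3 fell and 17 did not pass, with a median log2 fold change of 0.17, beside 17.3% of all genes called. The replicate block called 5 of these genes. The odorant-binding protein genes Obp83a, Obp59a and Obp49a rose by 0.30, 1.06 and 0.44, and Cyp6w1 rose by 0.56, whereas Obp28a, Obp19d and EbpIII, whose product is abundant in the ejaculatory bulb, changed by -0.54, -0.35 and -0.55. Of 12 sensory cilium and mechanosensory genes, nompC, a mechanically gated channel, rose by 1.08, rempA, a ciliary transport gene, rose by 0.37, and nompB, another ciliary transport gene, fell by 1.90 on the log2 scale. Among 10 tested regulators of sensory neurons and receptor choice, dsx, the doublesex transcription factor of sex differentiation, fell by 0.56 on the log2 scale (edgeR adjusted p = 0.00938) and the others did not pass; the replicate block called 2 of them.

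Markers of other cell types in a whole fly were measured beside the receptors. Of 15 neuronal genes none was called by edgeR, 1 had an unadjusted p under 0.05, and DESeq2 called 1 and voom none, with a median log2 fold change of -0.20; the replicate block called 2. Their summed level ran from 1334 to 1772 CPM in DHR39 flies and from 1606 to 1899 CPM in control flies. Of 6 glial genes none was called by edgeR, 3 had an unadjusted p under 0.05, and DESeq2 called 1, voom none and the replicate block 2, at summed levels of 687 to 757 CPM in DHR39 flies and 742 to 819 CPM in control flies. Of 10 photoreceptor genes none was called by edgeR, 1 had an unadjusted p under 0.05, and DESeq2 called 1 and voom none, at summed levels of 7558 to 8476 CPM in DHR39 flies and 7845 to 8950 CPM in control flies. By comparison, edgeR called 17.3% of all genes tested. None of these markers was at 0 in all libraries. Female markers were low in both groups, with 7 yolk and eggshell genes summing to 13.2 to 19.2 CPM in DHR39 flies and 15.1 to 21.5 CPM in control flies. Of the male dosage compensation RNAs, roX1 averaged 591 ± 17.0 CPM in DHR39 flies and 663 ± 29.9 CPM in control flies. The other, roX2, averaged 11.1 ± 2.08 CPM in DHR39 flies and 11.2 ± 1.71 CPM in control flies, and neither passed the test. What part these markers had in the receptor results was not tested.

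The limit of 80 counts divides a continuous range. Just inside it were Gr39b and Ir94d with 81 counts and Ir52c with 84 counts, and just outside were Or2a with 76 counts and Or13a and Or98b with 66 counts. The 64 matched genes below the limit, 33 Or, 12 Gr and 19 Ir, had sums of 9 to 76 counts, and 5 of them passed the filter on low counts. All 48 members passed that filter, 3 of them through 1 group only, with no library of the other group over its cutoff. These were Gr94a and Gr43a through DHR39 libraries and Gr47a through control libraries. Genes that pass in this way had to differ between the groups, and their calls support nothing about the members as a whole. Gr98a, which rose, had all 3 DHR39 libraries but only 2 of the 5 control libraries over the cutoff. Below the limit, Gr28a and Ir60e were called, named here after their values were seen, and both passed the filter through DHR39 libraries only. Gr28a, which lies 614 bases from Gr28b on 2L, had 29, 13 and 19 counts in DHR39 libraries, against 0, 3, 0, 1 and 0 counts in control libraries (edgeR adjusted p = 0.00118). Ir60e had 10, 12 and 10 counts in DHR39 libraries, against 2, 1, 2, 0 and 3 counts in control libraries (log2 fold change 2.56 ± 0.58, edgeR adjusted p = 0.00945).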

How the data were processed

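Poly(A) RNA was made into stranded libraries, per the labels' protocols. The submitters' processing notes name cutadapt 1.16, STAR 2.6.1b, featureCounts 1.6.3, DESeq2 1.20.0 and 1.22.2 and the builds BDGP6 and dm6. The deposited table gives raw counts per gene, as the authors made them. A deposited sheet of samples lists replicate names and the ratio by which the authors scaled each library. The authors' deposited comparison table gives log2 fold changes and adjusted p-values. All 2825 genes it calls carry the authors' DHR39 entry in its column of sets.

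Genes were filtered with filterByExpr, scaled by TMM and tested with edgeR 4.0.16 (quasi-likelihood, two-sided) in R 4.3.3. The biological coefficient of variation was 14.95%. CPM use TMM-scaled totals. In single libraries 3 counts equal 0.150 to 0.187 CPM before TMM scaling. Alternatives were DESeq2 1.42.0, voom of limma 3.58.1, further scalings and filters, count limits of 40 and 160, a replicate block and leaving out each library. The procedure was tested on simulated data. Positions and exon lengths came from Ensembl release 115 of BDGP6, in which all 112 names matched by identifier.

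Replicate names in the sample sheet join DHR39 replicates 1, 2 and 3 to control replicates 3, 4 and 5. Deviations from group means correlated at 0.215, 0.108 and 0.183 across genes within these pairs, which all exceed 0.1. The main test nevertheless used genotype only and ignored the pairs, which entered only as the replicate block of the refits. Under the block Gr47a and Gr59f lost their lower calls (edgeR adjusted p = 0.0744 and 0.0769). Or59b gained one there (edgeR adjusted p = 0.0207). A combination without a shared name, DHR39 replicate 1 with control replicate 2, reached 0.101, and the other 11 lay between -0.199 and 0.0927. Control replicates 1 and 2 share no name with a DHR39 library. Replicates differed by more than sampling noise (chi-square per degree of freedom 17.7 to 44.8).

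Members and lists were chosen with earlier results of these data known. Named were all called members, the 3 highest per kb of each family, the role lists, the genes next to the count limit and called genes of the marker lists. Or71a, Or23a and the remaining members were added after their values were seen, so that every member is given. Role lists and markers came from general knowledge of fly genes.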

Additional observations from a re-analysis of the deposited data

Results flagged for a closer look

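Each member was examined over the 5 control libraries for a library far from the others, and 2 of 48 genes had one, where chance gives about 1 in 20. Ir75a had 2.06 CPM in control replicate 4, its lowest control, and the other control libraries ran from 3.64 to 4.22 CPM. Ir76a had 2.30 CPM in control replicate 2, its lowest control, and the other control libraries ran from 3.21 to 3.57 CPM. Neither gene passed the test between DHR39 and control flies with or without any 1 library.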

How the results depend on the processing

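Gr94a, Gr43a, Gr98a and Ir100a were called higher in every refit, with log2 fold changes from 1.41 to 3.41, whereas each of the 4 lower calls ended in at least 1. Leaving out DHR39 replicate 1 ended all 4 lower calls. The edgeR adjusted p values there were 0.0565 for Gr47a, 0.0940 for Gr59f, 0.0531 for Or59c and 0.130 for Ir62a. The refits reuse the same libraries, and Gr94a and Gr43a passed the filter on low counts only through DHR39 libraries. With library totals alone, or after dropping the 50 most abundant genes from them, 1 Or gene was called higher (Or23a) and 0 Ir genes lower. With upper-quartile factors 1 Or gene was called higher. DESeq2 called 3 Or genes lower. The replicate block called 2 Or and 0 Gr genes lower. The block on the 6 paired libraries alone, chosen after seeing the data, called 3 Or and 0 Gr genes lower, and Gr47a did not pass the filter on low counts there. The block changed no other call of a member. With a limit of 40 counts 6 members were called higher, 4 Gr and 2 Ir genes, and with a limit of 160 counts 1 member was called higher, with 0 Gr higher and 1 Gr lower. Leaving out 1 library at a time gave 0 to 1 Or genes higher, and 1 to 4 members, 0 to 2 Or, 0 to 2 Gr and 0 to 1 Ir genes lower. In all of these the cause was not tested.

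The refits turned the sign of some members that were near 0 and not called. Under the block, and the block on paired libraries, Gr39b was at -0.24 and -0.24, Gr28b at -0.14 and -0.15, Ir41a at -0.013 and -0.013, Or92a at 0.0022 and 0.0013 and Or83c at 0.21 and 0.21. With library totals alone Ir76b was at 0.047, Or92a at 0.12 and Or83c at 0.13, and without the 50 most abundant genes Or92a was at 0.073 and Or83c at 0.086. With upper-quartile factors Or92a was at 0.018 and Or83c at 0.031, and with voom Or83c was at 0.14. Leaving out 1 library at a time gave ranges of -0.17 to 0.73 for Gr89a, -0.16 to 0.34 for Gr39b, -0.34 to 0.12 for Gr61a, -0.068 to 0.31 for Gr28b, -0.020 to 0.28 for Ir25a, -0.021 to 0.29 for Ir41a, -1.22 to 0.15 for Ir94d, -0.40 to 0.30 for Or92a, -0.17 to 0.33 for Or83c and -0.28 to 0.90 for Or22a. Over all members and refits, 876 values kept their call and direction, 19 lost and 14 gained a call, and 38 turned sign. Members had 10.1 to 177 counts per library on average, and standard errors ran from 0.16 to 0.75 on the log2 scale.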
